A study of Homo sapiens with 19 samples.

Results

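Transcripts of 7 genes of the YAP/TAZ pathway were followed in MDA-MB-231, an established human line of mesenchymal triple-negative breast cancer, after siRNA against STAT3 or HMGN5. They were 3 target genes (CCN2, CCN1 and ANKRD1), the 2 coactivators YAP1 and WWTR1, which encodes TAZ, and the 2 kinases LATS1 and LATS2. The members are 7 of the 175775 transcripts listed in each library, 1 Ensembl ID per gene. The IDs are ENST00000367976 for CCN2 (2339 bases), ENST00000451137 for CCN1 (2290 bases), ENST00000371697 for ANKRD1 (1979 bases), ENST00000282441 for YAP1 (5386 bases), ENST00000360632 for WWTR1 (2103 bases), ENST00000543571 for LATS1 (7517 bases) and ENST00000382592 for LATS2 (5511 bases). All 7 were present in every library and passed the filter on low counts. They were chosen by name from the pathway, with the estimated reads of these libraries and earlier results on them known. No limit on a value was set, and which contrasts weighed in the choice is not recorded. Every fold change and adjusted p below therefore places a transcript within the fit of all transcripts and is no independent evidence.

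Poly(A) RNA of 17 libraries in 6 groups was sequenced. In the siRNA experiment the cells received 30 nM of STAT3 siRNA (siSTAT3, 2 libraries), of HMGN5 siRNA (siHMGN5, 2 libraries) or of control siRNA (NC, 4 libraries). In the lentiviral experiment they received STAT3 siRNA with HMGN5 virus (siSTAT3_HMGN5, 3 libraries), STAT3 siRNA with control vector (siSTAT3_Vec, 3 libraries) or control siRNA with control vector (NC_Vec, 3 libraries). STAT3 is a transcription factor that JAK kinases activate, while HMGN5 binds nucleosomes and loosens compact chromatin. All 17 libraries come from this 1 line, the cells of every group were transfected with an siRNA, and those of all groups of the second experiment were also infected. The siRNA sequences, the promoter of the virus and the length of treatment are not given in the sources used here.

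YAP and TAZ are paralogous coactivators that do not bind DNA themselves and act on genes through TEAD transcription factors, often together with AP-1. In the Hippo pathway the kinases LATS1 and LATS2 phosphorylate YAP and TAZ, which keeps both in the cytoplasm and marks them for degradation, so much of the control lies in the proteins and not in the RNA. CCN1 and CCN2 encode secreted matricellular proteins that act on adhesion and growth, and ANKRD1 encodes an ankyrin repeat protein of the nucleus and the sarcomere. In MDA-MB-231 cells, which carry a mutation of the upstream regulator NF2, YAP and TAZ are known to be active. RNA levels as measured here do not show how much YAP or TAZ protein is in the nucleus.

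The promoters of CCN2 and ANKRD1 are shown because both genes are well-known direct TEAD targets and their RNA is the main readout below. They are the 250 bases before the RefSeq start, from RefSeq GRCh38.p14, on the gene's strand. CCN2 lies on the minus strand at chr6:131951373-131951622 and ANKRD1 on the minus strand at chr10:90921088-90921337. The 30 bases around the single match of YAP1 (plus strand, chr11:102110273-102110302) and of LATS2 (minus strand, chr13:21061560-21061589) are shown beside them. Capitals mark GGAATG, the core of the TEAD motif.
CCN2: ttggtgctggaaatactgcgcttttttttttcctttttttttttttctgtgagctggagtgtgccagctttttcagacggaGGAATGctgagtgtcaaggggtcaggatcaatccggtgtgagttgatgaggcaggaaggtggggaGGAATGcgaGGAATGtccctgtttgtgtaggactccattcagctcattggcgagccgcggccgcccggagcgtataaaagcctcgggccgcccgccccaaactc
ANKRD1: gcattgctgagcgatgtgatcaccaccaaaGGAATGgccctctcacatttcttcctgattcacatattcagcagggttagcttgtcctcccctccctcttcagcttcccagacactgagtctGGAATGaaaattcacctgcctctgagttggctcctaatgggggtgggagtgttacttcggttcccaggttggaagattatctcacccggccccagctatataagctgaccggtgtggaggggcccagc
YAP1: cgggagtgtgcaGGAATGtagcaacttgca
LATS2: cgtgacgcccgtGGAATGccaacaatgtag

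The letters GGAATG were searched on both strands of windows from 250 bases before to 50 bases after each start, which the RefSeq promoter table used here holds for 6 of the 7 genes. The CCN2 window held 3 matches, with their first base at -169, -104 and -95 counted from the start. At least 3 matches stood in 0.128% of all 35116 windows of this length. The ANKRD1 window held 2, at -220 and -128, a number reached by 1.37% of all windows. YAP1 had 1 match at -162 and LATS2 had 1 that begins at base 9 after the start, and at least 1 match stood in 14% of all windows. No match stood in the 2 windows of WWTR1 or the 2 windows of LATS1. The letters TGANTCA, a loose form of the AP-1 motif that allows any base at N, were found in 7.71% of all windows. They stood once in ANKRD1, at -195 between its GGAATG matches and without overlap, and once in 1 LATS1 window at -245. The ANKRD1 match reads tgattca, with T at N, and a narrower AP-1 motif was not searched. The STAT letters TTCNNNGAA, found in 7.66% of all windows, stood in none of the 8. A match describes letters and is neither a bound site nor a cause. CCN1 was not analysed here for motifs.

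**Figure D1:**
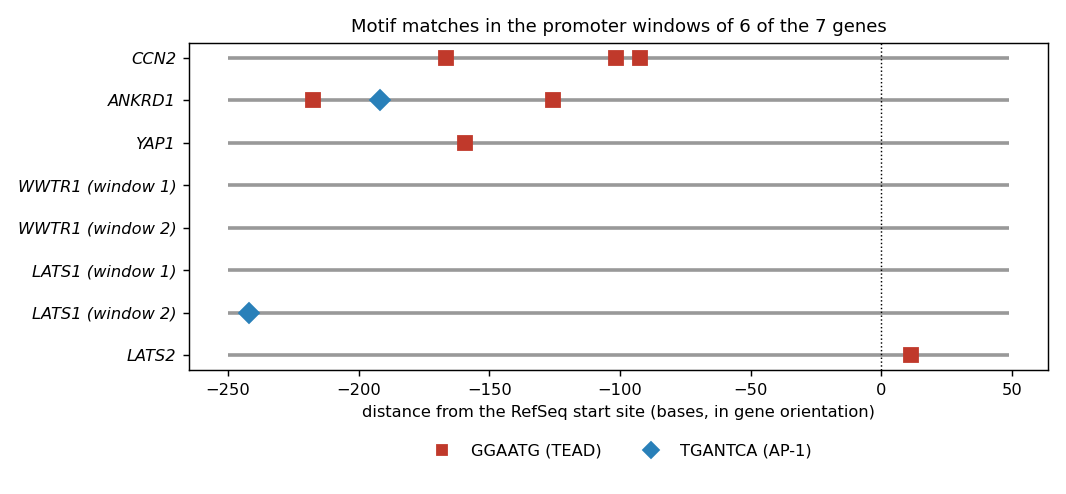
Matches to GGAATG (squares) and TGANTCA (diamonds) in the promoter windows of 6 genes, plotted by their distance in bases from the RefSeq start. CCN2 has 3 GGAATG matches and ANKRD1 has 2, and the windows of WWTR1 have none.

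Depth was even: 19114033 to 19509422 reads were estimated per library after siRNA alone and 22500086 to 23047081 with infection. In CPM, the estimated reads scaled by library size and by TMM factors within an experiment, 3 reads were worth 0.154 to 0.157 and 0.130 to 0.133, far below every member. The control siRNA libraries formed 2 pairs. A chi-square was taken between 2 libraries at a time, only over the 281 to 330 transcripts whose estimated reads were whole in all 17 libraries and not few. The chi-square per transcript averaged 50.5 to 58.7 when replicate 3 or 4 was set against replicate 1 or 2, whereas the libraries inside a pair gave 1.80 and 2.49 and replicates of other groups gave 1.71 to 7.43. Results that use NC are therefore given against all 4 libraries and, where this matters, against each pair. Transcripts under 300 bases took 1.57% to 1.59% of the reads in siSTAT3 and 1.56% to 1.70% in siHMGN5, against 1.15% to 1.26% in NC, and the part of this in the results was not tested. Nothing in the labels says that replicates were grown separately. A p-value here measures only the spread between these samples, and that spread may be technical. No file pairs a transcript with a gene name, so the silencing of STAT3 and HMGN5, the identity of the line and the other genes of the pathway were not analysed here. In bulk RNA, fewer cells that express a gene and less RNA per cell cannot be told apart.

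Per unit length the followed transcripts of the 3 targets were far more abundant than those of the coactivators and kinases. Other isoforms were not summed, so the levels rank transcripts and not genes. On the TPM scale, the authors' length-scaled level, CCN1 lay between 222 and 1703, ANKRD1 between 162 and 704.5 and CCN2 between 49.3 and 280.1 over the 17 libraries. YAP1 lay between 3.11 and 16.1 TPM, WWTR1 between 2.21 and 6.64, LATS1 between 1.24 and 5.24 and LATS2 between 2.48 and 7.75. All 3 targets stood above all 4 regulators in 17 of 17 libraries. CCN1 was the most abundant of the 7 in 15 libraries and ANKRD1 in the other 2, both siHMGN5. Each ID stands for 1 transcript of its gene: the estimated reads of CCN2 and LATS2 were whole within 0.0015 in 10 of 17 libraries and those of ANKRD1 in 3, while those of CCN1, YAP1, WWTR1 and LATS1 were whole in none. Salmon splits a read that fits several isoforms among them, so, for these 4 above all, a change of the gene and a shift between its isoforms cannot be told apart.

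CCN2 was the one member that was lower in every comparison with a control and lower again when HMGN5 virus was added to STAT3 siRNA. YAP1 and LATS1 were lower after STAT3 siRNA alone but not in the infected cells. There CCN1, ANKRD1, LATS2 and, near the threshold, LATS1 were instead higher after STAT3 siRNA. The LATS1 calls of both experiments ended when some single libraries were left out. The counts of members past an adjusted p of 0.05 (edgeR quasi-likelihood test, Benjamini-Hochberg over all transcripts tested) are read against the share of all transcripts called. In siSTAT3 against NC, 3 of 7 members were called, all lower, where 4.28% of 74346 transcripts were called. In siHMGN5 against NC, 2 were called, both lower, against 3.39% of all transcripts, and only 1 was called when any single library of the experiment other than NC replicate 3 was left out, with 0.666% to 2.53% of all transcripts called. In siSTAT3 against siHMGN5, 3 were called, all lower, against 3.89%, and 1 was called without siSTAT3 replicate 1, against 1.02%. Counts against the separate NC pairs were larger, in a fit whose error no longer holds the spread between the pairs. Against NC replicates 3 and 4, 6 members passed for siSTAT3, where 9.85% of all transcripts did, and 6 for siHMGN5, against 10.3%. Against NC replicates 1 and 2, 5 members passed for siSTAT3, against 7.13%, and 4 for siHMGN5, against 5.6%.

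In the lentiviral experiment, 5 members were called in siSTAT3_Vec against NC_Vec, 4 higher and 1 lower, where 14.3% of 69768 transcripts were called. In siSTAT3_HMGN5 against siSTAT3_Vec, 4 were called, 1 higher and 3 lower, against 3.77% of all transcripts. In siSTAT3_HMGN5 against NC_Vec, 5 were called, 3 higher and 2 lower, against 22.3%. Between libraries of the same treatment, NC replicates 3 and 4 against NC replicates 1 and 2, 3 members were called, all higher, against 4.39%. The median log2 fold change of the 7 was -0.99 in siSTAT3 against NC, -0.66 in siHMGN5 against NC, 0.23 in siSTAT3_Vec against NC_Vec and -0.07 in siSTAT3_HMGN5 against siSTAT3_Vec, with the median of all transcripts between -0.01 and 0.02 in each. Comparisons within an experiment share libraries: both siRNA comparisons use NC, and the siSTAT3_Vec libraries stand in both steps of the lentiviral experiment. Because the choice of members drew on these reads, nothing is read from a member count above the background share.

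**Figure D2:**
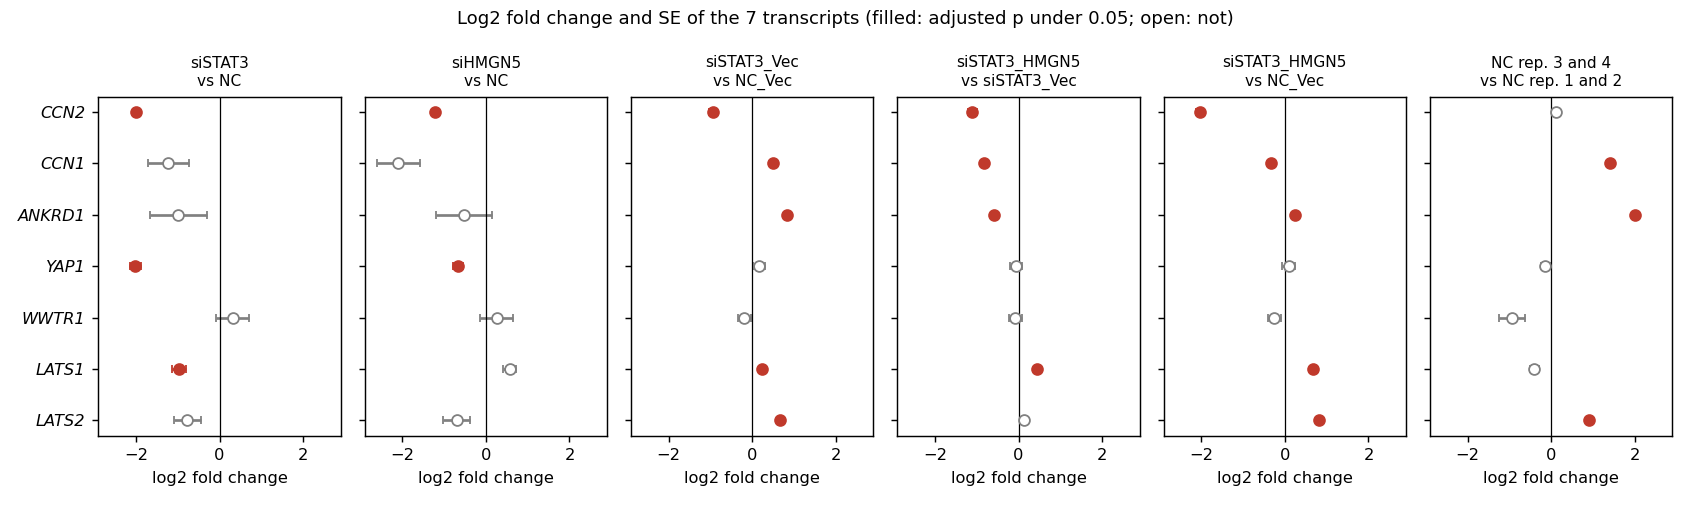
Log2 fold change (x axis) with its standard error (bars) for the 7 transcripts in 6 comparisons, filled where the adjusted p over all transcripts is under 0.05. CCN2 is filled and left of 0 in the 5 comparisons between treatments and open at 0.11 between the NC pairs, whereas CCN1 and ANKRD1 are filled and right of 0 between the NC pairs.

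CCN2, the connective tissue growth factor, fell after both knockdowns. Its level was 222 and 222 CPM in siSTAT3, 374 and 389 CPM in siHMGN5, and 851, 860.1, 937 and 910.5 CPM in NC replicates 1 to 4. The 3 groups did not overlap, and the NC pairs lay close together for this gene. Groups of 2 libraries can part without a difference that passes: LATS2 did so between siSTAT3 and siHMGN5 (edgeR adjusted p = 0.978). The share of all transcripts whose groups do not overlap was not counted, so lack of overlap only describes the values. The log2 fold change of NC replicates 3 and 4 over NC replicates 1 and 2 was 0.11 ± 0.04 (adjusted p = 0.199), which passed with DESeq2 (adjusted p = 0.00334) and limma-voom (adjusted p = 0.0448). Between these pairs DESeq2 called 13.5% of all transcripts and limma-voom 4.61%. The mean in siSTAT3 was 4.01-fold lower than in NC (log2 fold change -2.0 ± 0.07, SE, adjusted p = 0.000539). In siHMGN5 it was 2.33-fold lower than in NC (log2 fold change -1.22 ± 0.07, adjusted p = 0.00176). CCN2 was also lower in siSTAT3 than in siHMGN5, by 0.78 ± 0.08 on the log2 scale (adjusted p = 0.00549), a call that ended without siSTAT3 replicate 1 (adjusted p = 0.0513).

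In the infected cells CCN2 went down in steps. It stood at 273, 245 and 226 CPM in siSTAT3_HMGN5, at 548, 509.7 and 541 CPM in siSTAT3_Vec, and at 1052, 881 and 1115 CPM in NC_Vec. No library of one group reached into another. The level in siSTAT3_Vec was 1.91-fold lower than in NC_Vec (log2 fold change -0.93 ± 0.10, adjusted p = 0.000772). The level in siSTAT3_HMGN5 was a further 2.15-fold lower than in siSTAT3_Vec (-1.10 ± 0.10, adjusted p = 0.00209), so with HMGN5 its level lay farther from NC_Vec. Set directly against NC_Vec, siSTAT3_HMGN5 was 4.09-fold lower (-2.03 ± 0.10, adjusted p = 1.49e-05). CCN2 was thus lower both where HMGN5 siRNA was given and where HMGN5 virus was added to STAT3 siRNA, each against its own controls.

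CCN1, the close relative of CCN2 once named CYR61, was the most abundant member in most libraries and differed between the control pairs. It stood at 1734 and 1776 CPM in siSTAT3 and at 951 and 959 CPM in siHMGN5. In NC it stood at 6260.0 and 5593 CPM in replicates 3 and 4 and at 2141 and 2365 CPM in replicates 1 and 2. All 4 treated libraries lay below all 4 NC libraries, yet the NC pairs differed 2.63-fold (log2 fold change 1.4 ± 0.07, adjusted p = 0.00283). With all NC libraries the log2 fold change was -1.22 ± 0.49 in siSTAT3 (adjusted p = 0.271) and -2.10 ± 0.52 in siHMGN5 (adjusted p = 0.0948), so neither passed the edgeR test, whereas DESeq2 called both (adjusted p = 0.045 and 6.87e-05). Against NC replicates 3 and 4 they were -1.76 (adjusted p = 0.000512) and -2.63 (adjusted p = 0.000256), and against NC replicates 1 and 2 they were -0.36 (adjusted p = 0.0438) and -1.24 (adjusted p = 0.00183). The direction was therefore the same against either pair, and the size was not. Between the knockdowns the log2 fold change was 0.88 ± 0.54 in siSTAT3 over siHMGN5 (adjusted p = 0.486), and it passed when NC was left out of the fit (adjusted p = 0.0219).

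In the infected cells CCN1 went up with STAT3 siRNA and down with HMGN5. It stood at 2997, 2839 and 2707 CPM in siSTAT3_HMGN5, at 5137, 4892 and 5079 CPM in siSTAT3_Vec, and at 3773, 3257 and 3727 CPM in NC_Vec. The groups did not overlap, and siSTAT3_Vec was the highest. CCN1 was 1.41-fold higher in siSTAT3_Vec than in NC_Vec (log2 fold change 0.49 ± 0.06, adjusted p = 0.00194). In siSTAT3_HMGN5 it was 1.77-fold below siSTAT3_Vec (-0.82 ± 0.06, adjusted p = 0.00118). In siSTAT3_HMGN5 it was 1.26-fold lower than in NC_Vec (-0.33 ± 0.06, adjusted p = 0.00778).

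ANKRD1, widely used as a reporter gene of YAP activity, followed CCN1 in the infected cells and had no single direction after siRNA alone. It stood at 649.5 and 647 CPM in siSTAT3, at 885.5 and 901 CPM in siHMGN5, and at 2201, 1928, 503 and 524 CPM in the NC replicates numbered 3, 4, 1 and 2. Both knockdown groups lay between the NC pairs, which differed 4.02-fold (log2 fold change 2.01 ± 0.07, adjusted p = 0.00111). With all NC libraries the log2 fold change was -0.99 ± 0.68 in siSTAT3 (adjusted p = 0.539) and -0.53 ± 0.67 in siHMGN5 (adjusted p = 0.802). Against NC replicates 3 and 4, ANKRD1 was lower in siSTAT3 (-1.67, adjusted p = 0.000474) and in siHMGN5 (-1.21, adjusted p = 0.000931). Against NC replicates 1 and 2, it was higher in siSTAT3 (0.34, adjusted p = 0.0432) and in siHMGN5 (0.80, adjusted p = 0.00466). The sign of both comparisons is thus set by which control pair is used. Between siSTAT3 and siHMGN5 the log2 fold change was -0.46 ± 0.75 (adjusted p = 0.876), and it passed with NC left out of the fit (adjusted p = 0.0259).

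The infected cells gave ANKRD1 levels of 1014, 999.6 and 946 CPM in siSTAT3_HMGN5, 1443, 1458 and 1548 CPM in siSTAT3_Vec, and 865, 797 and 841.5 CPM in NC_Vec. The groups were again apart, with siSTAT3_Vec highest and NC_Vec lowest. ANKRD1 was 1.78-fold higher in siSTAT3_Vec than in NC_Vec (log2 fold change 0.83 ± 0.05, adjusted p = 4.38e-05). With HMGN5 it was 1.5-fold lower than in siSTAT3_Vec (-0.59 ± 0.05, adjusted p = 0.00121). The level in siSTAT3_HMGN5 stayed 1.18-fold above NC_Vec (0.24 ± 0.05, adjusted p = 0.00779). Of the 3 targets, CCN1 and ANKRD1 thus moved opposite ways in the 2 steps, up with STAT3 siRNA and down with HMGN5, and CCN2 moved down in both.

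**Figure D3:**
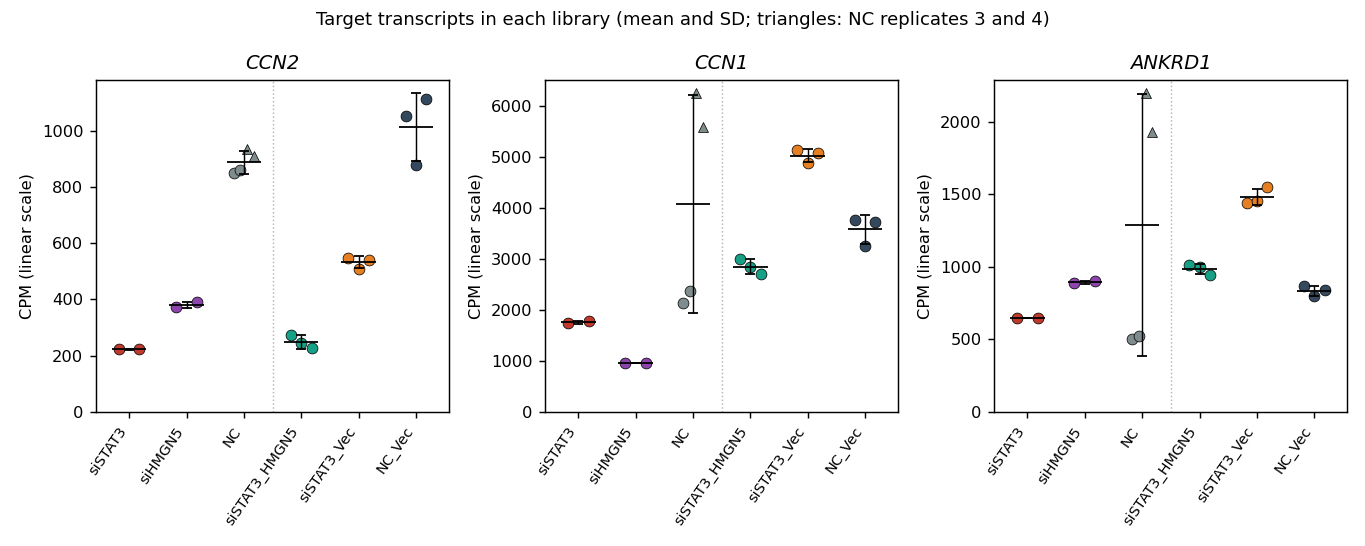
CPM of CCN2, CCN1 and ANKRD1 in each of the 17 libraries (points), with group means and SD (bars) on linear axes. NC replicates 3 and 4 (triangles) sit far above NC replicates 1 and 2 for CCN1 and ANKRD1 but beside them for CCN2, at 937 and 910.5 CPM beside 851 and 860.1 CPM.

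Ratios of targets within a library, which do not depend on scaling between libraries, show how far the targets parted. ANKRD1 over CCN2, on the TPM scale, was 4.40 to 4.91 in siSTAT3_HMGN5 and 3.20 to 3.50 in siSTAT3_Vec, against 0.918 to 1.03 in NC_Vec. CCN1 over CCN2 was 11.04 to 11.95 in siSTAT3_HMGN5 and 9.5 to 9.86 in siSTAT3_Vec, against 3.42 to 3.62 in NC_Vec. Both ratios stood in the same order in the infected cells, with no overlap between groups. After siRNA alone, CCN1 over CCN2 was 8.06 and 8.27 in siSTAT3 and 2.62 and 2.54 in siHMGN5, against 6.88 and 6.39 in NC replicates 3 and 4 and 2.59 and 2.82 in NC replicates 1 and 2. ANKRD1 over CCN2 was 3.56 in both siSTAT3 libraries and 2.88 and 2.83 in siHMGN5, against 2.85 and 2.62 in NC replicates 3 and 4 and 0.718 and 0.734 in NC replicates 1 and 2. The siHMGN5 libraries thus matched NC replicates 1 and 2 in the first ratio and NC replicates 3 and 4 in the second.

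**Figure D4:**
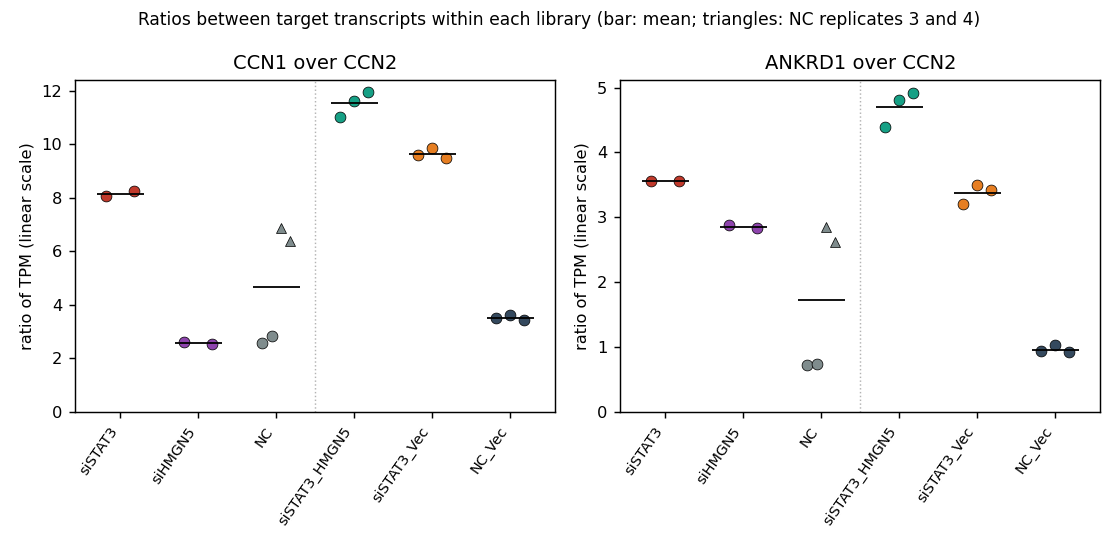
Ratios of TPM between targets in each library (points) with group means (bars), on linear axes. In the infected cells both ratios rank siSTAT3_HMGN5 above siSTAT3_Vec above NC_Vec, and the NC libraries fall into 2 pairs.

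The followed transcript of YAP1, the coactivator itself, had a lower level after siRNA alone. It stood at 33.0 and 33.6 CPM in siSTAT3, at 92.8 and 77.6 CPM in siHMGN5, and at 145, 137, 117 and 138.5 CPM in NC replicates 1 to 4. The groups did not overlap. YAP1 was 4.04-fold lower in siSTAT3 than in NC (log2 fold change -2.01 ± 0.13, adjusted p = 0.00152) and lower than in siHMGN5 (-1.35 ± 0.13, adjusted p = 0.00592). In siHMGN5 it was 1.58-fold lower than in NC (-0.66 ± 0.12, adjusted p = 0.0362). That call was near the threshold: it ended without any single library of the experiment other than NC replicate 3 (adjusted p 0.0708 to 0.236), without a filter on low counts (adjusted p = 0.0574) and with the compared groups alone in the fit (adjusted p = 0.0777). Against NC replicates 3 and 4 the YAP1 log2 fold change in siHMGN5 was -0.59 and against NC replicates 1 and 2 it was -0.73. Between the NC pairs it was -0.14 ± 0.12 (adjusted p = 0.639).

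In the infected cells the YAP1 groups overlapped. The levels were 93.5, 106.5 and 118 CPM in siSTAT3_HMGN5, 119, 108 and 107 CPM in siSTAT3_Vec, and 123, 92.5 and 83.9 CPM in NC_Vec. The log2 fold change was 0.16 ± 0.15 in siSTAT3_Vec against NC_Vec (adjusted p = 0.607) and -0.07 ± 0.15 in siSTAT3_HMGN5 against siSTAT3_Vec (adjusted p = 0.944). In siSTAT3_HMGN5 against NC_Vec it was 0.09 ± 0.15 (adjusted p = 0.751). A difference in this YAP1 transcript was therefore not detectable at this spread in the experiment in which all 3 targets passed the test.

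WWTR1, which encodes TAZ, passed in none of the 8 comparisons by the edgeR test. It stood at 20.3 and 18.5 CPM in siSTAT3, at 17.2 and 20.1 CPM in siHMGN5, and at 17.8, 23.0, 7.43 and 13.95 CPM in NC replicates 1 to 4. Both knockdown groups lay within the range of NC. In the infected cells the levels were 9.60, 10.8 and 11.7 CPM in siSTAT3_HMGN5, 10.6, 11.8 and 11.4 CPM in siSTAT3_Vec, and 11.5, 11.2 and 15.8 CPM in NC_Vec, with overlap between all groups. The log2 fold change was 0.31 ± 0.40 in siSTAT3 and 0.26 ± 0.40 in siHMGN5 against NC (adjusted p = 0.80 and 0.85). These turned to -0.08 and -0.13 against NC replicates 1 and 2 alone. Between the NC pairs it was -0.93 ± 0.32 (adjusted p = 0.223), which passed with DESeq2 (adjusted p = 0.0405), where 13.5% of all transcripts did. The WWTR1 values rest on 141 to 441 estimated reads per library, the fewest of the 7. In siSTAT3, where YAP1 was lowest, WWTR1 stood above it on the TPM scale, at 4.61 and 5.21 TPM beside 3.11 TPM, and YAP1 stood above WWTR1 in the other 15 libraries.

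LATS1, a kinase that restrains YAP and TAZ, was lower after STAT3 siRNA alone and higher in the infected cells. It stood at 20.95 and 18.6 CPM in siSTAT3, at 61.6 and 53.8 CPM in siHMGN5, and at 45.5, 43.0, 32.7 and 34.3 CPM in NC replicates 1 to 4. The groups did not overlap, with siHMGN5 the highest. In siSTAT3 LATS1 was 1.97-fold lower than in NC (log2 fold change -0.97 ± 0.17, adjusted p = 0.0313). This call ended without NC replicate 1 (adjusted p = 0.0531) or 2 (0.0652), without siHMGN5 replicate 1 (0.0686) or 2 (0.0687), without siSTAT3 replicate 1 (0.149) or 2 (0.213), and with the compared groups alone in the fit (0.062). Against a single NC pair it passed, at -0.76 (adjusted p = 0.0103) against replicates 3 and 4 and -1.16 (adjusted p = 0.00428) against replicates 1 and 2. The error of these fits leaves out the spread between the pairs. In siHMGN5 the log2 fold change was 0.57 ± 0.16 against NC (adjusted p = 0.14), a difference that DESeq2 called (adjusted p = 0.00871). It passed against NC replicates 3 and 4 (0.79, adjusted p = 0.00932) and missed against NC replicates 1 and 2 (0.38, adjusted p = 0.11). Between the knockdowns LATS1 was lower in siSTAT3 than in siHMGN5 (-1.54 ± 0.20, adjusted p = 0.0117), a call that ended without siHMGN5 replicate 1 (adjusted p = 0.0671) and without siSTAT3 replicate 1 (0.0658) or 2 (0.0812).

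With infection the LATS1 levels were 64.15, 66.2 and 70.95 CPM in siSTAT3_HMGN5, 51.5, 49.35 and 48.2 CPM in siSTAT3_Vec, and 40.7, 44.1 and 42.2 CPM in NC_Vec. The groups did not overlap and stood in that order. With HMGN5, LATS1 was 1.35-fold above siSTAT3_Vec (log2 fold change 0.43 ± 0.06, adjusted p = 0.00765) and 1.59-fold above NC_Vec (0.66 ± 0.06, adjusted p = 0.000154). The smaller step, 1.17-fold higher in siSTAT3_Vec than in NC_Vec (0.23 ± 0.06, adjusted p = 0.032), was near the threshold. It ended without any single library of NC_Vec or siSTAT3_Vec and without siSTAT3_HMGN5 replicate 2 (adjusted p 0.0513 to 0.131). It also ended without a filter on low counts (adjusted p = 0.087), with limma-voom (0.0542) and with the compared groups alone in the fit (0.0505).

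LATS2, the paralog of LATS1 and itself a known target of YAP and TAZ in a feedback loop, was spread by the NC pairs in the same direction as CCN1 and ANKRD1. It stood at 28.4 and 28.0 CPM in siSTAT3, and at 29.2 and 30.4 CPM in siHMGN5. In NC it stood at 61.85 and 64.2 CPM in replicates 3 and 4 but at 34.25 and 32.6 CPM in replicates 1 and 2. All 4 treated libraries lay below the lowest NC library, and the NC pairs differed 1.89-fold (log2 fold change 0.91 ± 0.06, adjusted p = 0.00483). With all NC libraries the log2 fold change was -0.77 ± 0.32 in siSTAT3 (adjusted p = 0.292) and -0.69 ± 0.32 in siHMGN5 (adjusted p = 0.361). Against NC replicates 3 and 4 LATS2 was lower in siSTAT3 (-1.16, adjusted p = 0.000901) and in siHMGN5 (-1.08, adjusted p = 0.00106), and against NC replicates 1 and 2 the values were -0.24 (adjusted p = 0.0926) and -0.16 (adjusted p = 0.259).

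In the infected cells LATS2 stood at 71.8, 73.6 and 75.5 CPM in siSTAT3_HMGN5, at 69.6, 64.45 and 66.2 CPM in siSTAT3_Vec, and at 41.3, 39.1 and 45.9 CPM in NC_Vec. The groups with STAT3 siRNA were apart from NC_Vec and close to each other. LATS2 was 1.59-fold higher in siSTAT3_Vec than in NC_Vec (log2 fold change 0.66 ± 0.07, adjusted p = 0.000555) and 1.75-fold higher in siSTAT3_HMGN5 than in NC_Vec (0.81 ± 0.07, adjusted p = 0.000132). For siSTAT3_HMGN5 against siSTAT3_Vec the log2 fold change was 0.14 ± 0.07 (adjusted p = 0.363). LATS2, CCN1 and ANKRD1 were thus all higher in siSTAT3_Vec than in NC_Vec, and in siSTAT3_HMGN5 CCN1 and ANKRD1 were lower than in siSTAT3_Vec while LATS2 did not pass the test.

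**Figure D5:**
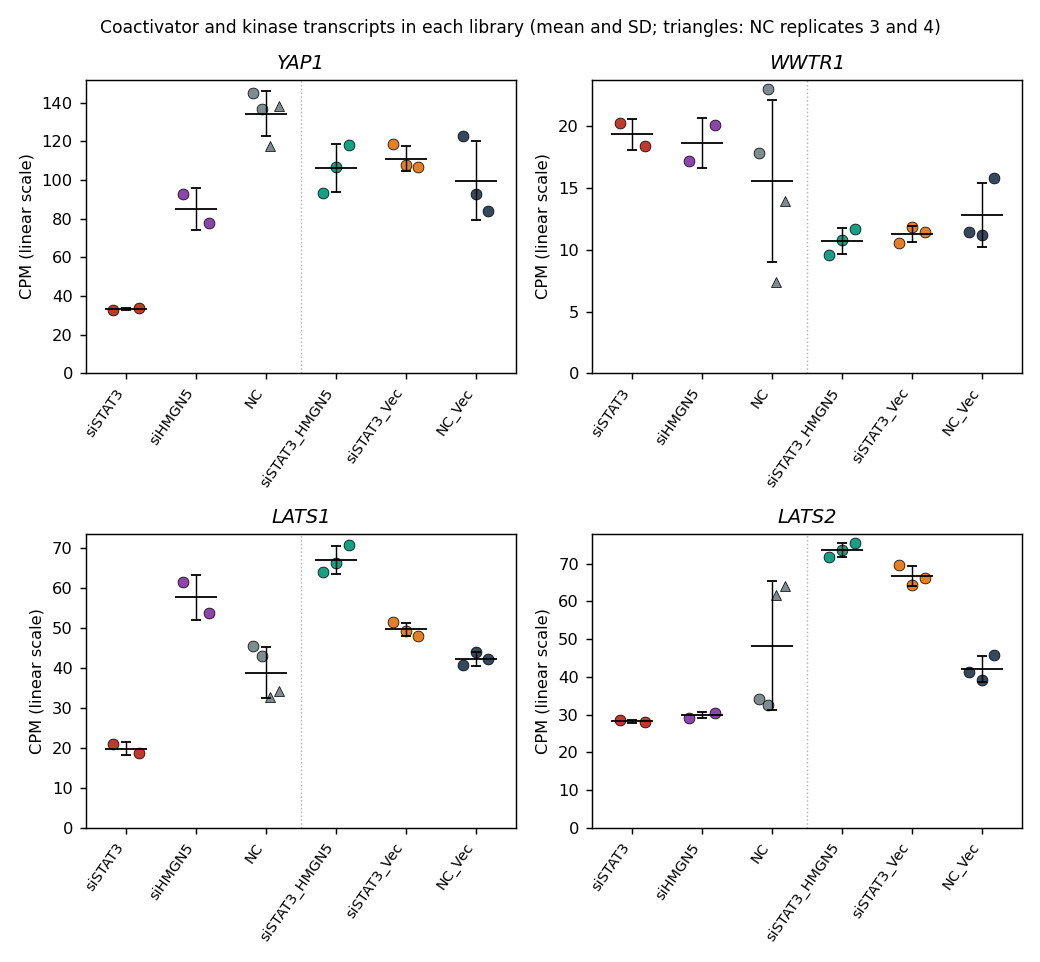
CPM of YAP1, WWTR1, LATS1 and LATS2 in each library (points) with group means and SD (bars), on linear axes. YAP1 is lowest in siSTAT3, at 33.0 and 33.6 CPM, and its infected groups overlap, whereas LATS2 in NC_Vec lies below both infected groups with STAT3 siRNA.

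A fit of all 17 libraries asked whether the effect of STAT3 siRNA differed between the experiments, none of whose libraries is shared. It differed past the threshold for 4 of 7 members, all more negative in the siRNA experiment. Of 86839 transcripts, 5.51% differed, 2849 of them more negative and 1935 more positive in the siRNA experiment. For YAP1 the difference of log2 fold changes, siRNA minus lentiviral, was -2.19 ± 0.20 (adjusted p = 3.36e-05). For LATS1 it was -1.22 ± 0.17 (adjusted p = 0.000732) and for CCN2 -1.09 ± 0.13 (adjusted p = 0.000186), so CCN2 fell in both experiments and fell further without infection. The LATS2 difference was -1.46 ± 0.33 (adjusted p = 0.0191), a call that ended without siSTAT3 replicate 1 (adjusted p = 0.0784) or 2 (0.0882). CCN1 had -1.73 ± 0.48 (adjusted p = 0.0571) and ANKRD1 -1.85 ± 0.67 (adjusted p = 0.159). Both passed without NC replicate 1 (adjusted p = 0.00925 for CCN1 and 0.039 for ANKRD1) or NC replicate 2 (0.018 and 0.0473), against either NC pair alone, and with DESeq2 on all libraries (0.00332 and 0.0321). With DESeq2, 15.0% of all transcripts passed in this comparison. The CCN1 difference was -2.27 against NC replicates 3 and 4 and -0.86 against NC replicates 1 and 2, and that of ANKRD1 was -2.53 and -0.51. The fits against 1 NC pair were added after the data were seen, and their error leaves out the spread between the pairs. WWTR1 had 0.48 ± 0.43 (adjusted p = 0.662). Infection and experiment change together and cannot be told apart. The spread is pooled over the experiments in this fit, and the error of the siRNA experiment may be understated.

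The transcripts whose levels were most like that of CCN2 over the 17 libraries were ENST00000373337.3, with a Pearson r of 0.979, and ENST00000421351.3, with 0.975. The least like was ENST00000371538.4, with an r of -0.977. These were taken on log2(CPM + 1) after each experiment's mean was removed, over 15894 transcripts that averaged 10 CPM or more, and the libraries share their groups, so the values describe likeness only. The files give no gene names for the 3.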

How the data were processed

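Poly(A) RNA-seq of 17 MDA-MB-231 libraries was analysed, grouped by sample titles, with 2 CUT&Tag samples not analysed here. Per the file headers, each deposited table gives the length, effective length, TPM and estimated count of reads of Ensembl transcripts. Salmon 1.4.0 is named in the submitters' processing notes, with Bowtie2, CASAVA, HOMER, hg38 and GRCh38. Neither the transcript release nor the Salmon options or strand use is given in the sources used here. TPM in the deposited files is relative to effective length and to 1 total per library, so it was used only for levels between genes and ratios within a library. The estimated counts that the authors deposited need not be whole, since shared reads are divided between transcripts, and were rounded for tests.

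The experiments were fitted apart with edgeR 4.0.16 (R 4.3.3): TMM, filterByExpr, glmQLFit and glmQLFTest on group means, with Benjamini-Hochberg adjustment over all transcripts tested and a threshold of 0.05. The STAT3 siRNA effects of the experiments were compared by an interaction contrast over 17 libraries. CPM was scaled by TMM within an experiment, and errors of log2 fold changes are standard errors from the test statistic. The script was tested on simulated data. Alternatives were RLE scaling, other filters, DESeq2 1.42.0, limma-voom 3.58.1, an effective length offset, a replicate block, the compared groups alone, each NC pair, and each library left out. The members and lists were chosen with earlier results of these data known, and all 7 members are named in every comparison. Pathway lists, markers of the line and the STAT3 and HMGN5 check were planned only for files that pair transcripts with genes, and were not run. Motifs were searched in RefSeq GRCh38.p14 windows matched by symbol. Each member had 141 or more estimated reads in each library.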

Additional observations from a re-analysis of the deposited data

Results flagged for a closer look

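The STAT3 siRNA effect differed between the siRNA and the lentiviral experiment for 4 members by the interaction test of all 17 libraries (edgeR, Benjamini-Hochberg adjusted), given as the log2 fold change of siSTAT3 over NC minus that of siSTAT3_Vec over NC_Vec. The difference was -2.19 for YAP1, with log2 fold changes of -2.01 and 0.16 in the 2 experiments, and -1.22 for LATS1, with -0.97 and 0.23. It was -1.09 for CCN2, with -2.0 and -0.93, and -1.46 for LATS2, with -0.77 and 0.66. Against NC replicates 3 and 4 the differences of these 4 were -2.12, -1.02, -1.15 and -1.85 in the same order. Against NC replicates 1 and 2 the differences were -2.25, -1.41, -1.03 and -0.92, with no adjusted p above 0.000307 against either pair. Both fits were added after the data were seen, and their error no longer holds the spread between the NC pairs. The LATS2 call with all NC libraries ended without either siSTAT3 library, as given above. Infection, experiment and set of control libraries change together and cannot be told apart. In NC, the only group with 4 or more libraries, no member had a library far from the other 3. This rule looks for 1 library apart from the rest and cannot mark the split of NC into 2 pairs.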

How the results depend on the processing

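For the 56 fold changes of 7 members in 8 comparisons, the alternatives gave 882 values, of which 802 kept direction and side of the threshold. With the sign unchanged, 34 no longer passed and 33 now passed. The remaining 13 changed sign and are counted apart, whether or not they passed. Against NC replicates 1 and 2 alone, ANKRD1 turned to 0.34 in siSTAT3 and 0.80 in siHMGN5, which both passed. WWTR1 turned to -0.0775 and -0.13, which did not. Small values near 0 also changed sign when a library was left out: WWTR1 in siSTAT3 over siHMGN5 ranged from -0.0679 to 0.16, and YAP1 from -0.15 to 0.0153 in siSTAT3_HMGN5 over siSTAT3_Vec and from -0.0364 to 0.27 over NC_Vec. The count for siSTAT3 against NC, 3 members, was 6 against NC replicates 3 and 4 (9.85% of all transcripts called) and 5 against NC replicates 1 and 2 (7.13%). It was 4 with DESeq2 (14.8%), and 2 without NC replicate 1 (3.17%), without NC replicate 2 (3.22%) and with the compared groups alone (3.15%). It also fell when any 1 library of siHMGN5 or siSTAT3 was left out, where the LATS1 call ended, as given above. For siHMGN5 against NC, 2 members, it was 1 without a low-count filter (1.33%), 4 with DESeq2 (14%), 1 with the compared groups alone (2.07%), 6 and 4 against the same NC pairs (10.3% and 5.6%), and 1 to 2 with a library left out (0.666% to 2.53%). For siSTAT3 against siHMGN5, 3 members, it was 5 with the compared groups alone (5.26%) and 1 to 3 with a library left out (1.02% to 3.48%), and between the NC pairs, 3 members, it was 6 with DESeq2 (13.5%). The cause was not tested. No pairing by replicate number was seen: deviations of same-numbered libraries correlated at -0.09 to 0.05 and those of differently numbered libraries at -0.06 to 0.08. The check is weak for siSTAT3 and siHMGN5, where the deviations of the 2 libraries of a group mirror each other. With a replicate block, which drops NC replicates 3 and 4 because each is alone in its block, 4 members were called in siSTAT3 (2.18% of all transcripts) and 3 in siHMGN5 (1.21%) against NC, 5 in siSTAT3 against siHMGN5 (3.25%), 4 in siSTAT3_Vec against NC_Vec (10.8%) and 6 in the interaction (5.37%), and ANKRD1 and WWTR1 turned to 0.34 and -0.0645 in siSTAT3 and to 0.80 and -0.13 in siHMGN5. RLE in place of TMM scaling moved the median of all transcripts by under 0.1 on the log2 scale.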
